A study of Mus musculus with 21 samples.

Results

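The genes described here carry the names of nuclear-made subunits of oxidative phosphorylation and were measured in the mouse hippocampus. They were chosen by symbol alone: names starting with Nduf and a subunit letter and number, Sdha to Sdhd, names starting with Uqcr, Cox4 to Cox8 and names starting with Atp5, with pseudogene symbols left out. Of 24411 genes in the deposited tables, 84 matched: 37 of complex I, 4 of complex II, 8 of complex III, 18 of complex IV and 17 of complex V. A test was run on genes whose mean normalized count over a table reached 10. That left 82 of the 84 in the first experiment and 81 in the second. Cox8c was listed at 0 in all 21 libraries, Cox7b2 lay far under the minimum in both experiments, and Cox4i2 passed in the first experiment only (mean 11.9 normalized counts). Cox8b lay just inside it there (mean 11.5).

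RNA was measured in the hippocampus of 1 hemisphere in 21 samples from male, wild-type mice, perfused before dissection. In the transfer experiment the recipients were B6.SJL-Ptprca Pepcb/BoyJ mice aged 4 months. All of them first received the CD8a antibody (clone 2.43) on days -11 and -7, which was meant to deplete their own CD8+ T cells. They then received CD8+ T cells from the spleen and blood of C57BL/6J donors by tail vein, 300000 cells in the first injection and 3000000 in the second, as the protocol gives the amounts. Donors were aged 22 to 28 months for the aged T recipients (n = 5) and 3 to 4 months for the young T recipients (n = 6). The depletion experiment used mice of 22 to 24 months that were given, every 4 days, either the same antibody (CD8a antibody, n = 5) or its rat IgG2b isotype control (n = 5). The labels name no strain for these mice, and they do not say how many donors a cell preparation pooled. They do not state in words that each sample is a separate mouse, so p-values measure only the spread between these samples, which may be technical.

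Oxidative phosphorylation makes most of the ATP of neurons. Complexes I and II pass electrons to ubiquinone, complex III passes them on to cytochrome c, and complex IV passes them to oxygen, while complexes I, III and IV move protons out of the matrix. Complex V, the ATP synthase, makes ATP as protons return through its turning ring of c subunits. Complexes I, III, IV and V hold a few subunits made from mitochondrial DNA and many made from nuclear genes, whereas all subunits of complex II are nuclear. The 13 mitochondrially encoded subunits were looked up by their mt- symbols, and none was listed in either experiment, so they were not analysed here.

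Nuclear subunit genes are known targets of the factors NRF1, NRF2 (also called GABP, of the ETS family) and YY1. RefSeq (GRCm38.p6) gave the 250 bases before 1 or more of its start sites for 69 of the 84 genes, 75 windows in all. RefSeq's starts often lie downstream of the outermost start of the same gene in GENCODE, the source of the gene coordinates given here: 48 of the 75 windows reached into the GENCODE gene and 12 lay wholly inside it. Both strands of every window were searched for 3 short words. The NRF1 word GCGCATG stood in 10 of the 69 (14.5%; Ndufa6, Ndufa8, Ndufa11, Ndufb6, Sdhb, Cox5b, Cox6a1, Atp5g2, Atp5k and Atp5l), against 3.68% of 27025 genes. The ETS word CCGGAAG stood in 12 (17.4%), against 7.83% of all genes. The YY1 word AAGATGG stood in 2 (2.9%; Atp5j and Atp5sl), against 5.18%. None of these words contains another, and the NRF1 word can overlap itself on the other strand. In 10 members a word lay before both the RefSeq and the GENCODE start. A match describes letters, not a binding site. To show 1 promoter per complex, the window is printed of the member with the smallest p in the transfer among these 10, without the bases that lie inside the GENCODE gene. Each runs 5′ to 3′ on the strand of the gene, which was minus for all 5, with the words in capitals (CATGCGC and CTTCCGG are GCGCATG and CCGGAAG on the other strand). They are chr4:40279422-40279671 for Ndufb6, chr9:50603850-50604099 for Sdhd, chr10:80406831-80407071 for Uqcr11, chr5:115348982-115349208 for Cox6a1 and chr2:174464106-174464351 for Atp5e.
Ndufb6: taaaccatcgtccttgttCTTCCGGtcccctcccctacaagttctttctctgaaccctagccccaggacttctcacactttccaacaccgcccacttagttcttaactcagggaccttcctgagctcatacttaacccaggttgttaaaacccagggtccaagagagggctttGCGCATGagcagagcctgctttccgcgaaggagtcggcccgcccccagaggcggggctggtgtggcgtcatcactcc
Sdhd: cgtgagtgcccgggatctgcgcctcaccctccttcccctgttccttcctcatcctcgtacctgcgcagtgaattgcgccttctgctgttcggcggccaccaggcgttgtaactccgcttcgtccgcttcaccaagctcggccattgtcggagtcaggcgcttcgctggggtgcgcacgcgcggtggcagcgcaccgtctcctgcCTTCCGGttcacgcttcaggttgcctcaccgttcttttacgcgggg
Uqcr11: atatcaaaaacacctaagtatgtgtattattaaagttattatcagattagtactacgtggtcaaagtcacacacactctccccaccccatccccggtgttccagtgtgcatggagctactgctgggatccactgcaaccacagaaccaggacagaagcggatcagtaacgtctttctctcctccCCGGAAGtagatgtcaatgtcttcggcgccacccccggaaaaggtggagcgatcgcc
Cox6a1: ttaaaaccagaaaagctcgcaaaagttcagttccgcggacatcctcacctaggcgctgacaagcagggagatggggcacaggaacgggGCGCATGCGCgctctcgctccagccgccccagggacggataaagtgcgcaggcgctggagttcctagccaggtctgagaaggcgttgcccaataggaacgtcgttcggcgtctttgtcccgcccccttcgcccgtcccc
Atp5e: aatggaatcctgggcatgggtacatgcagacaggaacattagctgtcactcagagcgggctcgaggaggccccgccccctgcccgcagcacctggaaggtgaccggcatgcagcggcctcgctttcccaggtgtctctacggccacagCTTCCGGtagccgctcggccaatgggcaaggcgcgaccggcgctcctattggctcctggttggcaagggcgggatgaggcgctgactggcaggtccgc
Counted from the RefSeq start, the NRF1 word began 77 bases before it in Ndufb6, and in Cox6a1 it stood on both strands, beginning 162 and 159 bases before it. The ETS word began 232 bases before that start in Ndufb6, 46 in Sdhd, 66 in Uqcr11 and 102 in Atp5e.

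Levels were compared between genes as normalized counts per kb of transcript, a scale that corrects for length. On this scale the same 5 genes, named for their level after it was seen, led in all 4 groups: Cox4i1, Atp5b, Cox6a1, Cox8a and Cox6c. Cox4i1, which encodes the large nuclear subunit of complex IV, stood at 10802 ± 2596 normalized counts per kb (SD, n = 6) in young T recipients and 13518 ± 3663 (n = 5) in aged T recipients. Atp5b, the catalytic beta subunit of the ATP synthase head, stood at 9773 ± 517 in young T recipients and 10653 ± 647 in aged T recipients. Cox6a1 followed at 9751 ± 1951 and 12922 ± 3430. In young T recipients these 3 levels lay within each other's spread. The median level per kb in young T recipients was 2237 for the 17 genes of complex V, 1725 for complex III, 1678 for complex IV, 1140 for complex I and 1113 for complex II, and the single genes of a complex ranged far more widely than these medians. The complex IV median counts all 18 genes taken by name, among them Cox8c at 0 and the scarce forms described below. Complex V counts Atp5s (111) and Atp5sl (160), which are no subunits of the enzyme. The order of these medians therefore depends on the naming rule.

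Several subunits come in more than 1 form, and the hippocampus used 1 form of most pairs. Atp5g1, Atp5g2 and Atp5g3 encode 1 and the same mature c subunit behind different import peptides. Of their summed level per kb, Atp5g3 gave 48.4 ± 1.36% (SD, n = 6) in young T recipients, 46.3 ± 2.36% (n = 5) in aged T recipients, 47.6 ± 1.83% with IgG2b and 46.0 ± 2.31% with the CD8a antibody. Atp5g1 gave 33.9 ± 1.40%, 35.7 ± 1.14%, 34.96 ± 2.02% and 35.3 ± 2.62%, and Atp5g2 gave 17.7 ± 1.05%, 17.9 ± 1.33%, 17.4 ± 1.03% and 18.7 ± 1.57% in the same order. For each of the 3 genes the range over libraries overlapped between the groups of each experiment.

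The forms known from other tissues were scarce. Cox4i2, the form known from lung, gave 0.131% of the level of its pair with Cox4i1 in young T recipients, and 0.149%, 0.0813% and 0.106% in aged T, IgG2b and antibody libraries. Cox6a2, a muscle form that is also known from parvalbumin interneurons, gave 0.567% of its pair in young T recipients and 0.398% in aged T recipients. Cox6b2, a testis form, gave 1.81% and 2.06%, and the muscle form Cox7a1 gave 2.23% and 2.08%. The muscle form Cox8b gave 0.30% and 0.605% of its pair with Cox8a. Ndufa4l2, a form known to be induced by low oxygen, gave 0.841% and 0.741% of its pair with Ndufa4. The 6 scarce genes had mean normalized counts of under 50 in each group, so their shares rest on few reads, and the share of each overlapped between the 2 transfer groups.

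**Figure D1:**
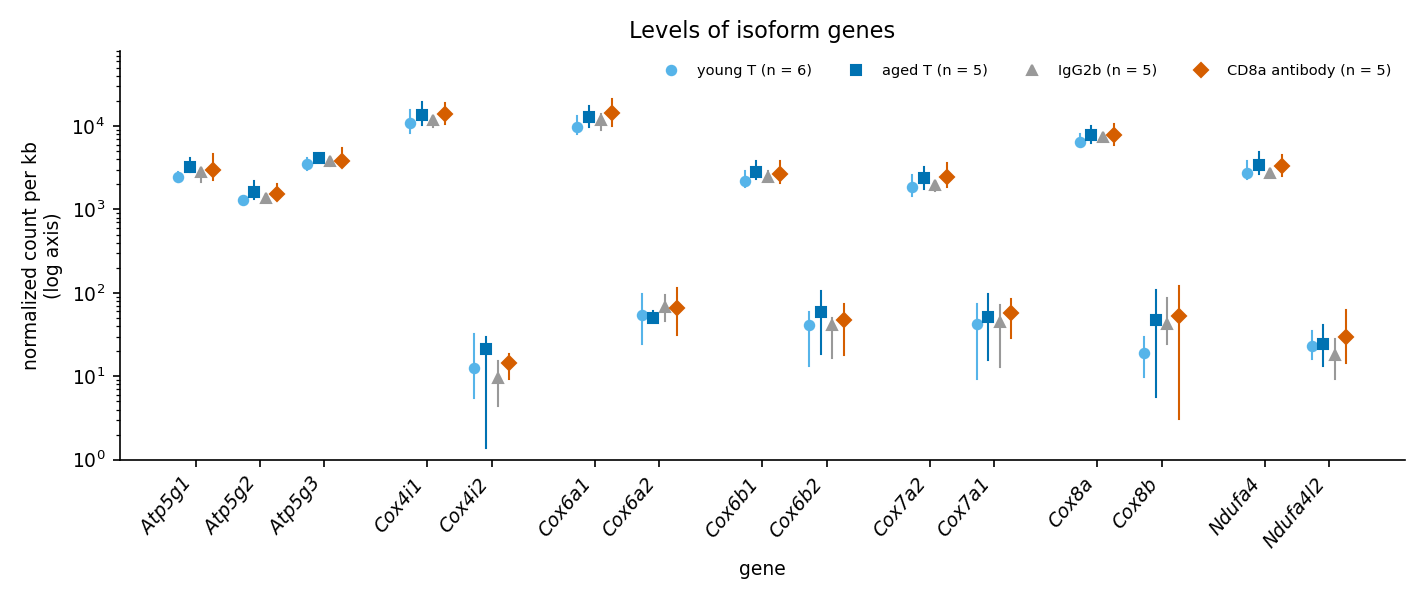
Normalized counts per kb of transcript (log axis) of subunit genes that come in more than 1 form; symbols are group means and lines run from the lowest to the highest library. The usual forms lie above 1000 in every library and the forms of other tissues near or under 100, while the 3 c subunit genes keep the order Atp5g3, Atp5g1, Atp5g2 in all 4 groups.

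The transfer experiment asked what CD8+ T cells from aged donors do to a young hippocampus. Of the 82 members tested, 81 had higher values in aged T recipients, against 6942 of 14162 genes (49%), with a median log2 difference of 0.28 against -0.00 for all genes, or 21.5%. The member on the other side was Atp5s (-0.00), which was taken by its name and is no subunit of the ATP synthase. No member passed limma's test at a Benjamini-Hochberg adjusted p under 0.05 (smallest adjusted p 0.600), and neither did any other gene, a background of 0%. edgeR and DESeq2 also called 0 genes, as did the authors' deposited table. At an unadjusted limma p under 0.05, 40 of 82 members (48.8%) were higher and 0 lower, against 4.29% and 3.96% of all genes; edgeR gave 41 of 82 higher (background 4.47%) and DESeq2 48 of 83 (4.2%). The members vary together between libraries, so these are not 40 separate findings. The count was 22 without aged T replicate 3 (background 3.14%), 20 without aged T replicate 5 (2.12%) and 21 without young T replicate 4 (2.58%). In bulk tissue, fewer cells of a type and less RNA per cell cannot be told apart.

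Complex I takes electrons from NADH. All 37 of its genes were higher in aged T recipients, with a median of 0.29, and 24 had an unadjusted p under 0.05. The 28 accessory subunits, which surround the catalytic core, had a median of 0.31 with 21 at that p, and the 7 nuclear core subunits a median of 0.18 with 3. The accessory genes were also shorter, with a median transcript of 693.5 bases against 1623 for the core genes. With the length trend described below subtracted, the medians were 0.11 for the accessory subunits and 0.05 for the core subunits. Ndufa8, an accessory subunit facing the intermembrane space, ran from 981 over a median of 1201 to 1317 normalized counts in young T recipients. In aged T recipients it had 1425, 1341, 1578, 1267 and 1736. All 5 aged T libraries lay above the young T median, and the groups overlapped through aged T replicate 4 and young T replicate 3. The means were 1162 ± 135 and 1469 ± 189 (SD), and the log2 difference of 0.34 (SE 0.10) had a limma adjusted p of 0.600. Ndufb6, an accessory subunit of the membrane arm whose promoter is printed above, has 4 exons at chr4:40270591-40279421 (GRCm38). It ran from 351 over 391 to 529 in young T recipients and was 497, 461, 655, 474 and 607 in aged T recipients. Young T replicate 3 was higher than 3 of the aged T libraries, and the log2 difference was 0.40 (SE 0.12). Ndufa2, a small accessory subunit, ran from 346 over 375 to 460 in young T recipients and was 504, 445, 684, 416 and 607 in aged T recipients. Its log2 difference was 0.44 (SE 0.13), and the groups overlapped at 416 and 445. Ndufb3 and Ndufb10, accessory subunits of the membrane arm, had the smallest p of the members, with a log2 difference of 0.38 each (SE 0.10 and 0.11) and all 5 aged T libraries above the young T median. Adjusted p was 0.600 for each of these genes.

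Among the core subunits, Ndufs3, a core subunit of the arm that reaches into the matrix, did not overlap between the groups. Its normalized counts ran from 1149 over 1217 to 1286 in young T recipients and were 1438, 1315, 1368, 1396 and 1783 in aged T recipients. The lowest aged T library stood just above the highest young T library, and replicate 5 stood apart at the top. Ndufs3 differed by 0.26 on the log2 scale (SE 0.08, limma adjusted p = 0.600). In 3 of 82 members (3.66%) every aged T library lay above every young T library, against 0.459% of all genes, and in 0 every one lay below (background 0.24%). Ndufs3 and Sdhb were among the 3 that lay above. Ndufa4 was placed in complex I by its symbol, although its protein is now known to belong to complex IV. It had 1693 ± 322 and 2090 ± 546 normalized counts (log2 difference 0.29, SE 0.15, adjusted p = 0.613), while Ndufa4l2 stood at 21.8 ± 6.76 and 22.7 ± 9.65.

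Complex II is succinate dehydrogenase, which also works in the tricarboxylic acid cycle. Its 4 genes were all higher, with the smallest median of the 5 complexes, 0.14, and 1 had an unadjusted p under 0.05. That gene was Sdhb, the iron-sulfur subunit, which has 8 exons at chr4:140961203-140979193. Sdhb ran from 1404 over 1605 to 1621 normalized counts in young T recipients and was 1763, 1702, 1878, 1772 and 2056 in aged T recipients. The groups did not overlap, and young T replicate 4 lay well under the other young T libraries. Its difference was 0.22 on the log2 scale (SE 0.07, limma adjusted p = 0.600). Sdha, the flavoprotein that oxidizes succinate, stood at 7699 ± 620 and 7915 ± 162 (log2 difference 0.04, SE 0.08, adjusted p = 0.892). The membrane anchors Sdhd (promoter printed above) and Sdhc had differences of 0.17 (SE 0.09, adjusted p = 0.613) and 0.11 (SE 0.08, adjusted p = 0.678).

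Complex III, cytochrome bc1, had 8 of 8 genes higher, with a median of 0.28 and 4 at an unadjusted p under 0.05. Its 5 small subunits had a median of 0.28, and the 2 core proteins with the Rieske iron-sulfur protein had a median of 0.12. The small subunit genes were also shorter, with a median transcript of 535 bases against 1653. With the length trend described below subtracted, the medians were 0.01 for the small subunits and 0.04 for the other 3. Uqcrq, a small subunit beside cytochrome b, ran from 1116 over 1214 to 1536 normalized counts in young T recipients and was 1550, 1438, 1899, 1244 and 2301 in aged T recipients. Its aged T values spread over more than the young T values, with replicates 3 and 5 highest, and the groups overlapped. Uqcrq differed by 0.37 on the log2 scale (SE 0.14, limma adjusted p = 0.600). Uqcr10 had 617 ± 146 and 848 ± 233 normalized counts (0.44, SE 0.17), and Uqcrb, which binds near the ubiquinone pocket, had 1015 ± 112 and 1245 ± 239 (0.28, SE 0.12). The core protein Uqcrc1 differed by 0.20 (SE 0.08), with 2938 ± 221 and 3380 ± 343. Adjusted p was 0.600 for all 3.

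Complex IV, cytochrome c oxidase, had 16 of 16 tested genes higher, with the largest median of the 5 complexes, 0.31, but 4 of 16 at an unadjusted p under 0.05. That rank rested on aged T replicate 3: without it the median was 0.20 for complex IV, 0.24 for complex I, 0.21 for complex III, 0.16 for complex V and 0.10 for complex II. Its 10 common forms had the same median, 0.31. Cox6b1, a subunit that joins 2 copies of the complex, lies at chr7:30616861-30626151 with 4 exons. It ran from 1161 over 1295 to 1773 normalized counts in young T recipients and was 1702, 1438, 2355, 1447 and 1805 in aged T recipients. All aged T libraries lay above the young T median, but young T replicate 3 exceeded 3 of them. Cox6b1 differed by 0.37 on the log2 scale (SE 0.13, limma adjusted p = 0.600). Cox6a1 had 5568 ± 1114 and 7379 ± 1959 normalized counts (0.39, SE 0.16), Cox5b 2894 ± 321 and 3549 ± 720 (0.28, SE 0.12), and Cox7b 1115 ± 211 and 1484 ± 470 (0.38, SE 0.17). Cox7c and Cox8a differed by 0.41 (SE 0.20) and 0.26 (SE 0.12). Adjusted p was 0.600 for each of the 6. Cox4i1, the most abundant member per kb, differed by 0.31 (SE 0.17, adjusted p = 0.618). Without aged T replicate 3, the differences were 0.22 for Cox7b, 0.25 for Cox7c, 0.17 for Cox8a and 0.18 for Cox4i1, and 0.15 for Ndufa4 described above. Over all complexes, 19 of 82 members had a difference more than 1.5 times smaller without that library, and 8 without aged T replicate 5.

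The scarce forms of complex IV had the widest spread of all members. Cox8b ran from 3.54 over 6.24 to 10.7 normalized counts in young T recipients and was 38.8, 11.6, 9.01, 2.03 and 24.5 in aged T recipients. Its log2 difference of 0.82 was the highest of the members, but the standard error was 0.57 (limma adjusted p = 0.681). Cox4i2 differed by 0.55 (SE 0.64), Cox6b2 by 0.41 (SE 0.46), Cox7a1 by 0.29 (SE 0.51) and Cox6a2 by 0.08 (SE 0.34). None of these 5 limma differences reached 2 standard errors. In the authors' deposited values Cox8b differed by 1.33 (SE 0.59), over 2 standard errors, with an adjusted p of 0.549. For Cox6a2 the direction depended on the method, with -0.12 in edgeR and -0.11 in DESeq2. Cox7a2l, which helps to join complexes III and IV, belongs to neither kind and differed by 0.17 (SE 0.09, adjusted p = 0.621).

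Complex V had 16 of 17 genes higher, with a median of 0.25 and 7 at an unadjusted p under 0.05. The c ring genes had a median of 0.31 with 3 of 3 at that p. The 5 genes of the F1 part (the catalytic head with its central stalk) had a median of 0.13 with 0 of 5. The c ring genes were also shorter, with a median transcript of 714 bases against 1166. With the length trend described below subtracted, the medians were 0.09 for the c ring and 0.04 for the F1 part. Atp5g1, a c subunit gene at chr11:96068852-96075670 with 5 exons, ran from 1262 over 1470 to 1694 normalized counts in young T recipients and was 1749, 1729, 1961, 1683 and 2439 in aged T recipients. The groups overlapped only through aged T replicate 4 and young T replicate 5. Atp5g1 differed by 0.36 on the log2 scale (SE 0.10, limma adjusted p = 0.600). Atp5g2 ran from 876 over 929 to 1045 in young T recipients and was 1126, 1024, 1183, 981 and 1592 in aged T recipients. Here 3 of 5 aged T libraries lay above all young T libraries, and the log2 difference was 0.31 (SE 0.11), or 0.20 without aged T replicate 5. Atp5g3 had 2531 ± 282 and 2946 ± 218 normalized counts (0.22, SE 0.09). Atp5o, part of the stalk that holds the head still, had 1994 ± 235 and 2422 ± 341 (0.28, SE 0.10). The small membrane subunits Atp5j2 and Atp5k differed by 0.36 (SE 0.14) and 0.34 (SE 0.15). Adjusted p was 0.600 for these 5. Atp5s and Atp5sl were taken by their names and are no subunits of the enzyme; they differed by -0.00 (SE 0.12) and 0.08 (SE 0.10).

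**Figure D2:**
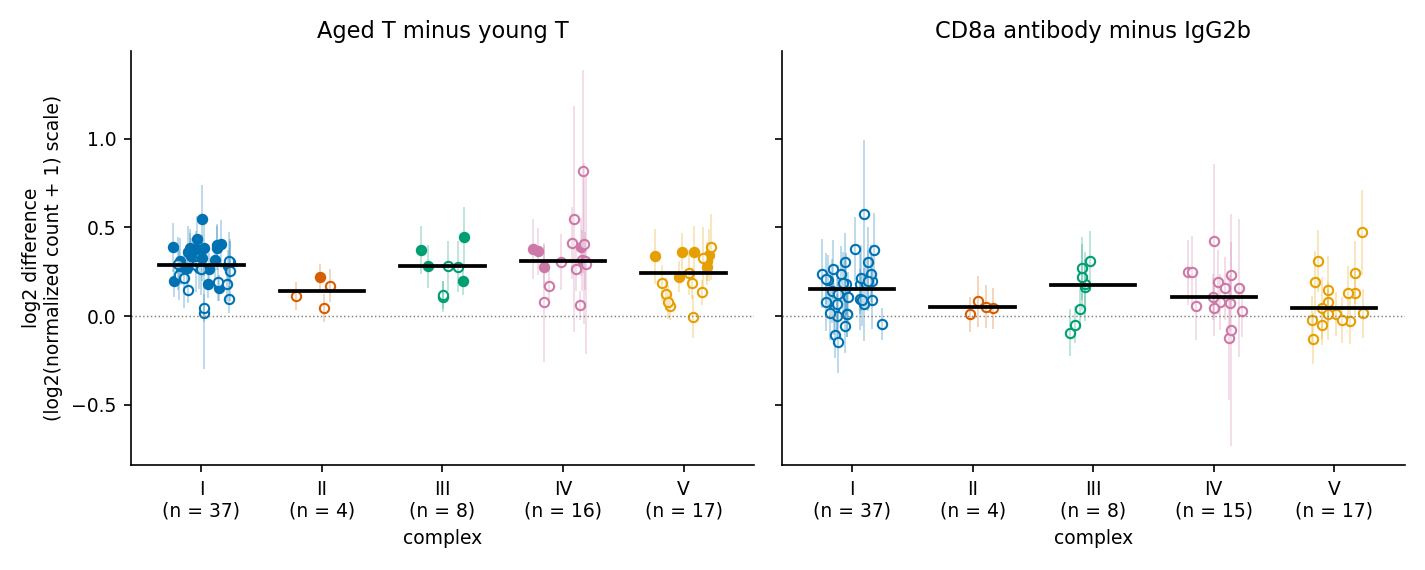
Log2 difference of each tested member by complex, on the log2(normalized count + 1) scale, with lines of 1 SE; filled symbols have an unadjusted limma p under 0.05, and black bars are medians. In the transfer, 81 of 82 points lie above 0 and 40 are filled, and in the depletion 68 of 81 lie above 0 and none is filled.

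**Figure D3:**
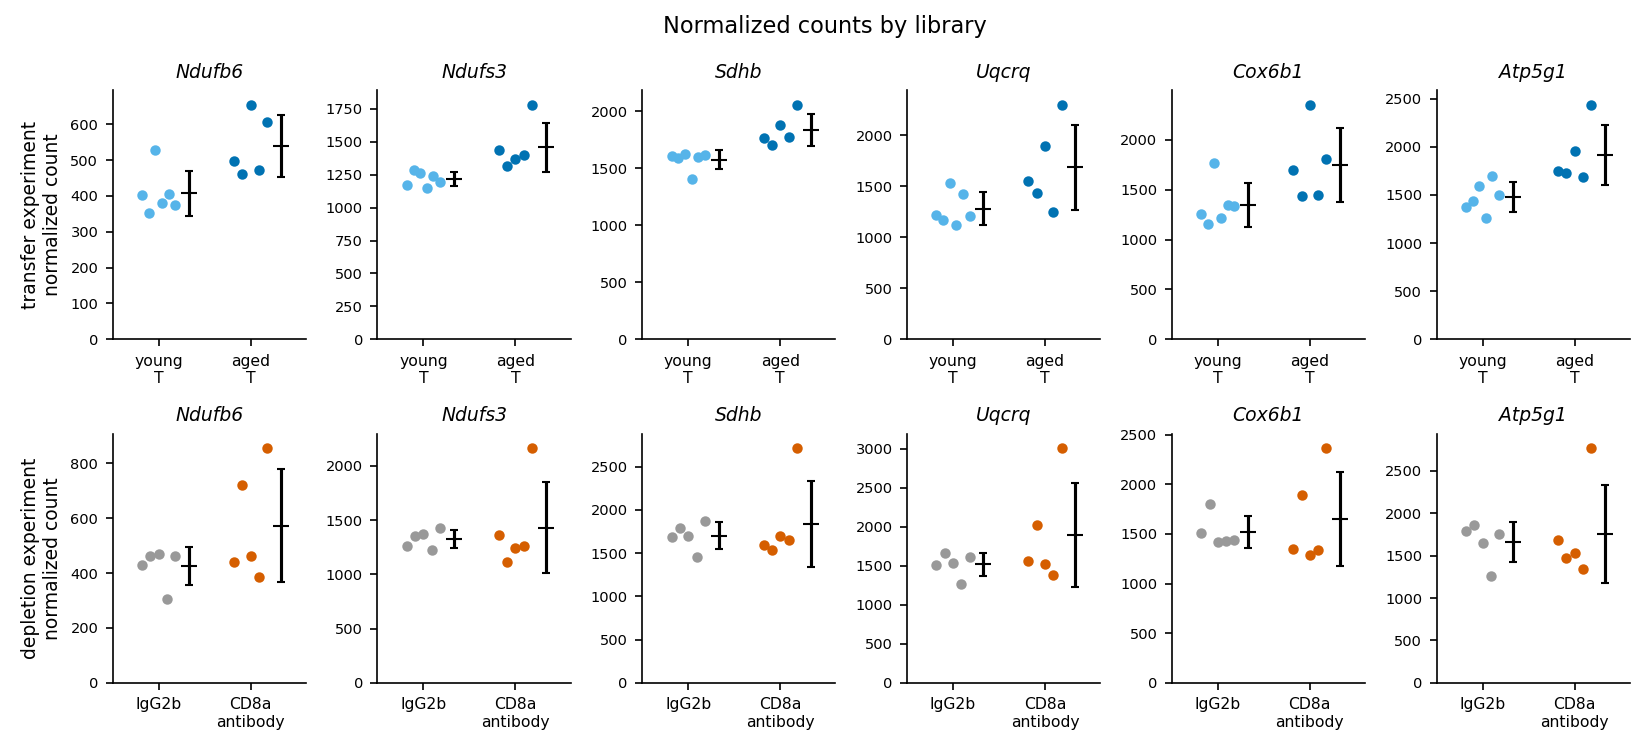
Normalized counts of 6 members in every library, 1 point a library, with the group mean and SD beside the points; both rows start at 0 and were normalized separately. Sdhb and Ndufs3 do not overlap between the transfer groups, and in the depletion CD8a antibody replicate 5 is the highest library for each of the 6 genes.

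The members lay high or low together from library to library. For each library the median over the members of the log2 deviation from the gene's mean over the table was taken. In young T recipients it was -0.17, -0.19, 0.14, -0.28, -0.08 and -0.12 for replicates 1 to 6. In aged T recipients it was 0.12, -0.04, 0.41, -0.04 and 0.34 for replicates 1 to 5. Replicates 3 and 5 of the aged T group were high and young T replicate 4 was low, and young T replicate 3 lay above 3 of the 5 aged T libraries. In young T replicate 4, 0 of 82 members stood above their mean, and in aged T replicate 5, 80 did. The members took 0.982 to 1.28% of all normalized counts in young T recipients and 1.10 to 1.45% in aged T recipients, ranges that overlap.

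Other short transcripts stood high or low in much the same libraries. Their deviation, as a median over genes outside the list with a transcript of up to 700 bases, was -0.08, -0.23, 0.23, -0.25, -0.12 and -0.13 in young T recipients. In aged T recipients it was 0.15, -0.07, 0.42, -0.13 and 0.33. Genes over 4000 bases ran the other way, from -0.19 in aged T replicate 5 to 0.09 in young T replicate 4. The share of counts from the ribosomal RNA precursor Rn45s differed between the groups, at 0.453 ± 0.173% (SD, n = 6) in young T and 0.936 ± 0.234% (n = 5) in aged T recipients. The ranges overlapped, at 0.350 to 0.795% and 0.747 to 1.34%. Replicate 3 of each group had the lowest share and the highest member median of its group. Aged T replicate 5 had the highest share and the second highest member median. The part of Rn45s in the members' difference was not tested.

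**Figure D4:**
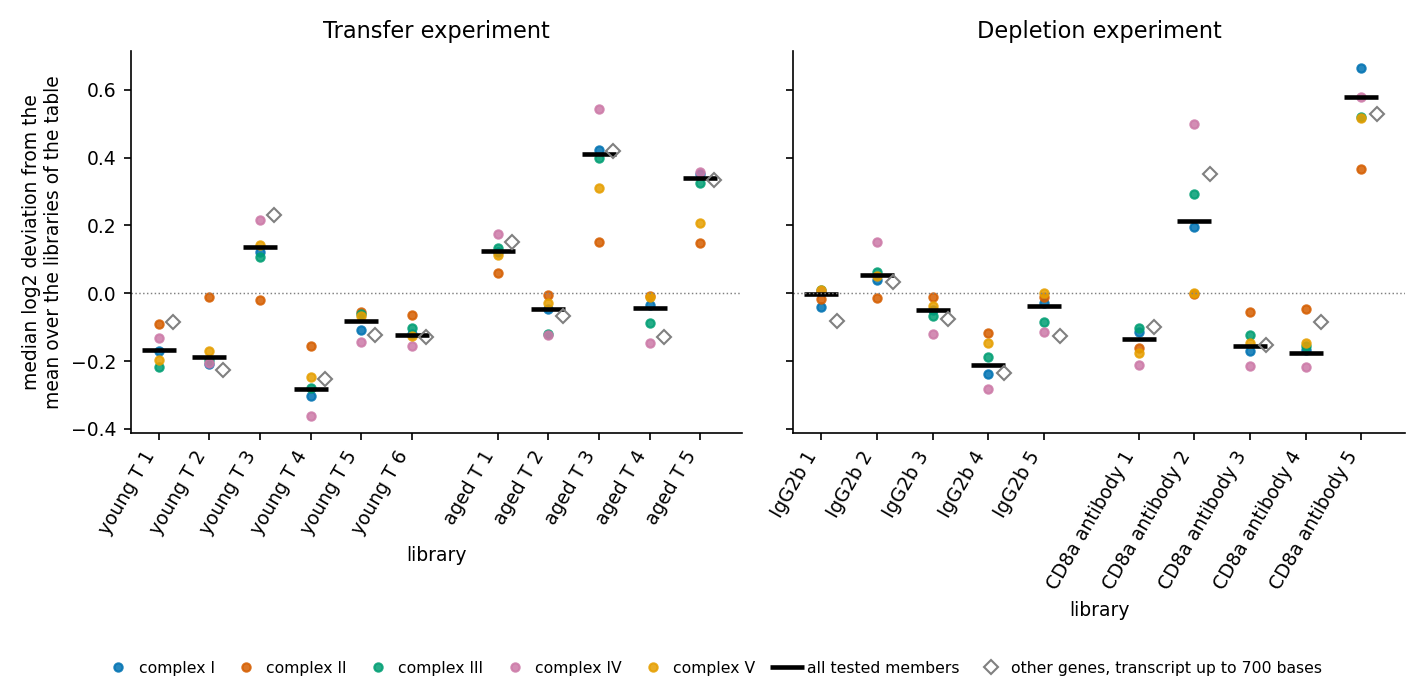
Median log2 deviation per library from the mean over the libraries of the same table, for each complex (points), all tested members (bars) and other genes with a transcript of up to 700 bases (diamonds). In both experiments the bars and the diamonds are high and low in much the same libraries, with aged T replicates 3 and 5, young T replicate 3 and CD8a antibody replicates 2 and 5 high.

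Members were short, with a median transcript of 743.5 bases against 3001 for all genes tested, and the difference between the groups ran with length across all genes. The Spearman correlation of log2 difference with length was -0.65 over the 82 members and -0.49 over 13993 other genes; genes are not independent replicates, and all points share the same libraries. Up to 700 bases, the median difference was 0.33 for 35 members and 0.26 for 298 other genes. From 701 to 1000 bases it was 0.28 for 19 members and 0.20 for 529 other genes, and from 1501 to 2500 bases it was 0.18 for 13 members and 0.06 for 3232 others. The members lay above other genes of their length in each of the 5 length ranges that held any. With the length trend of the other genes subtracted, the members' median was 0.07 and 68 of 82 were above 0, against 7089 of the 14075 genes with a length. The members' median per library had a pooled SD within groups of 0.18, before the trend was subtracted. The members vary together, so the 68 are not separate findings. By complex the remainder was 0.09 for complex I, 0.06 for complex II, 0.03 for complex III, 0.09 for complex IV and 0.06 for complex V. The cause of this trend was not tested.

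**Figure D5:**
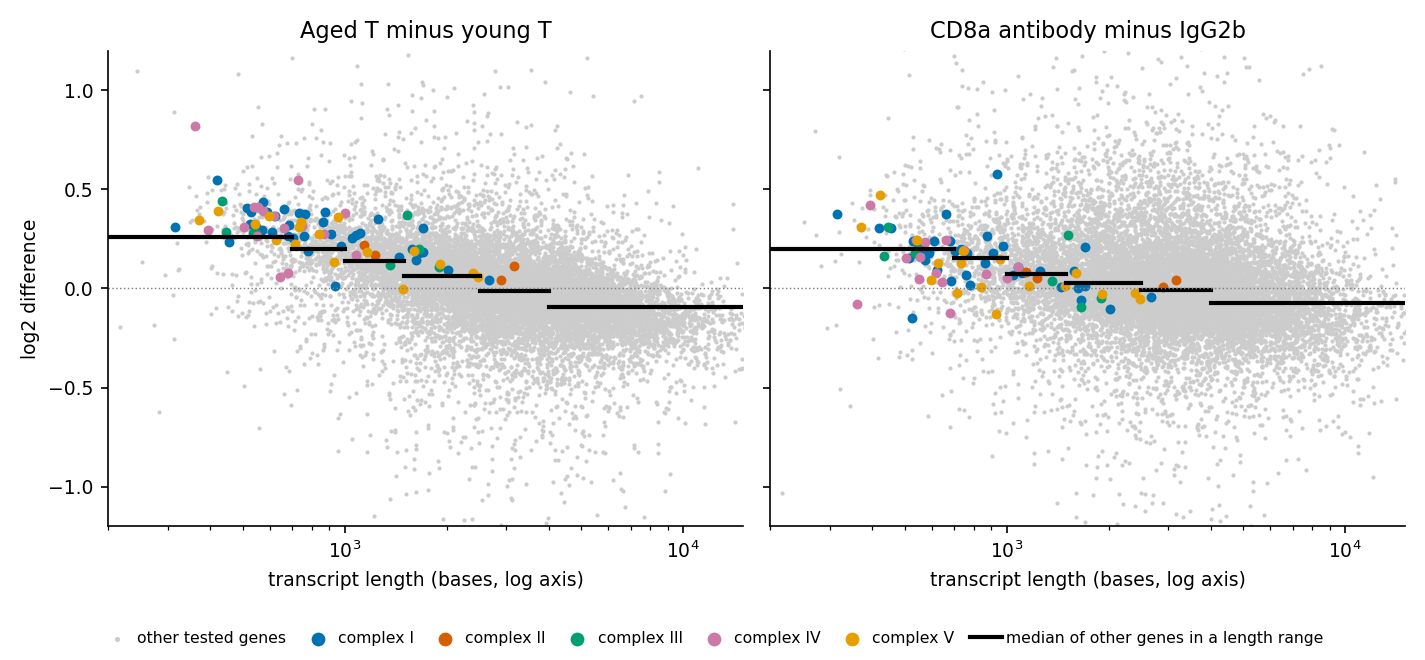
Log2 difference between the groups against transcript length (log axis) for members by complex (colours) and other tested genes (grey), with the median of the other genes in each length range (black lines). The axes leave out 83 and 113 of the 14075 and 13858 genes with a length, none of them members, and in both experiments shorter transcripts lie higher, members and other genes alike.

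The depletion experiment compared aged mice given the CD8a antibody with aged mice given its isotype control. Of 81 members tested, 68 had higher values with the CD8a antibody (84%, against 49.6% of all genes), and the median log2 difference was 0.11 against -0.00 for all genes. No member passed limma's test (smallest adjusted p 0.606), with 1 gene called in all, a background of 0.00717%. DESeq2 called 92 genes (0.506%), 0 of them members, and the authors' deposited table called 92 (0.656%), also without a member. At an unadjusted limma p under 0.05, 0 of 81 members were higher or lower, against 4.31% and 4.15% of all genes; edgeR gave 2 members higher (background 5.21%) and DESeq2 3 (4.57%). In no member did the groups separate, against 0.782% of all genes with every antibody library above every IgG2b library and 1.27% with every one below.

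The direction rested on 1 library. The per-library member median was -0.00, 0.05, -0.05, -0.21 and -0.04 with IgG2b and -0.13, 0.21, -0.16, -0.18 and 0.58 with the antibody. Antibody replicate 5 was far above all others, with 80 of 81 members above their mean and 1.93% of its normalized counts from members, against 1.16 to 1.47% in the other 9 libraries. Antibody replicate 2 was next, and the other 3 antibody libraries lay within the IgG2b range. Without replicate 5 the median was -0.01, with 38 members higher and 43 lower. By complex it was then 0.01 for complex I, -0.05 for complex II with 0 of 4 higher, 0.05 for complex III, 0.04 for complex IV and -0.02 for complex V. In that fit 4 members (4.94%) were lower at an unadjusted p under 0.05, and 0 higher, against 5.97% and 7.22% of all genes. They were Atp5d of the F1 part, Uqcrc1, Ndufa10 and Ndufv1, which were named after their values were seen. Other short transcripts were also highest in antibody replicate 5, at 0.53, and genes over 4000 bases were lowest there, at -0.38.

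Within complex I the median was 0.16 with 33 of 37 genes higher. Ndufc1, a small accessory subunit, had 396, 357, 485, 344 and 461 normalized counts with IgG2b and 443, 552, 483, 399 and 858 with the antibody. The groups overlapped, and antibody replicate 5 stood alone. Ndufc1 differed by 0.38 on the log2 scale (SE 0.18, limma adjusted p = 0.606), or 0.20 without that library. Ndufb6 had 426 ± 68.8 and 573 ± 204 (SD, n = 5 each; 0.37, SE 0.21, adjusted p = 0.660), and Ndufb2 and Ndufa5 differed by 0.30 (SE 0.17) and 0.26 (SE 0.17). The 7 core subunits had a median of 0.01, and the 28 accessory subunits one of 0.18. With the length trend subtracted, these medians were -0.05 and 0.01.

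The 4 genes of complex II had a median of 0.05. Sdhb, which separated the transfer groups, had 1685, 1791, 1699, 1456 and 1871 normalized counts with IgG2b and 1593, 1532, 1697, 1653 and 2714 with the antibody. Here 4 of 5 antibody libraries lay under the IgG2b median, and the difference of 0.08 (SE 0.15, limma adjusted p = 0.908) turned to -0.07 without replicate 5. Sdhd had 0.05 (SE 0.12) and -0.06 without that library.

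Complex III had 6 of 8 genes higher, with a median of 0.17. Its 5 small subunits were all higher (median 0.22), and of the core proteins and the Rieske protein 1 of 3 was (median -0.05). With the length trend subtracted, these medians were 0.003 and -0.09. Uqcr11, a small subunit whose promoter is printed above, had 917, 914, 1018, 741 and 911 normalized counts with IgG2b and 1005, 1326, 944, 819 and 1647 with the antibody. Replicates 2 and 5 were high and the others lay within the IgG2b range. The log2 difference was 0.31 (SE 0.17, limma adjusted p = 0.647). Uqcrq had 1516 ± 152 and 1898 ± 665 (0.27, SE 0.18, adjusted p = 0.711).

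Complex IV had 13 of 15 genes higher, with a median of 0.11. Cox7a2 had 1296 ± 130 and 1600 ± 549 normalized counts (log2 difference 0.25, SE 0.18, limma adjusted p = 0.742), Cox6a1 6727 ± 1089 and 8111 ± 2571 (0.23, SE 0.19), and Cox7c 2252 ± 514 and 2724 ± 887 (0.25, SE 0.21). Cox6a2 and Cox8b lay on the other side, at -0.12 (SE 0.35) and -0.08 (SE 0.66). The sign of Cox8b changed with the method, to 0.33 in both edgeR and DESeq2.

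Complex V had 12 of 17 genes higher and the smallest median, 0.04. Atp5e, the epsilon subunit of the head's central stalk whose promoter is printed above, had 767, 858, 822, 653 and 907 normalized counts with IgG2b and 878, 1768, 733, 791 and 1829 with the antibody. Replicates 2 and 5 stood far above the rest, and the other 3 lay within the IgG2b range. Atp5e differed by 0.47 on the log2 scale (SE 0.24, limma adjusted p = 0.627). Atp5k and Atp5l, membrane subunits, differed by 0.31 (SE 0.17) and 0.25 (SE 0.18). Atp5g1, the c subunit gene with the smallest p of complex V in the transfer, had 1664 ± 239 and 1761 ± 578 normalized counts (0.04, SE 0.18, adjusted p = 0.965), and Atp5g3 differed by -0.02 (SE 0.14).

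The difference ran with length here too. The Spearman correlation of log2 difference with length was -0.56 over the 81 members and -0.29 over 13777 other genes. Up to 700 bases the median difference was 0.20 for 35 members and 0.20 for 289 other genes, and from 1501 to 2500 bases it was -0.02 for 13 members and 0.03 for 3175 others. With the length trend subtracted the members' median was -0.03, with 35 of 81 above 0, against 6762 of the 13858 genes with a length. The cause of the trend was not tested.

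The 2 experiments share no sample, and each was normalized alone. Of the 81 members tested in both, 67 had higher values in both, against 3989 of the 13864 genes tested in both. Nearly all members were higher in the transfer, so this count follows from the 68 that were higher in the depletion. It is no separate sign of likeness between the experiments. Without CD8a antibody replicate 5, 38 of the 81 members were higher in the depletion, so the 67 rested on that library. The Spearman correlation of the 2 log2 differences was 0.55 over members (Pearson 0.35) and 0.20 over 13864 genes (Pearson 0.11). Length ran with the difference in both, so this likeness is not independent of it. Within groups the members' median SD on the log2 scale was 0.23 against 0.22 for other genes in the transfer, and 0.30 against 0.26 in the depletion. These other genes were not matched to the members by level.

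Genes around the complexes were described from lists of the pathway, by counts only. In the transfer, 6 of 6 subunits and partners that the naming rule misses were higher, with a median of 0.25; among them were Atpif1, the inhibitor of the ATP synthase (0.35, SE 0.11), and Cycs, cytochrome c (0.18, SE 0.09). Assembly factors lay nearer to 0, with 11 of 13 for complex I higher (median 0.11) and 26 of 32 for complexes II to V (median 0.12). The tricarboxylic acid cycle, which feeds electrons into the chain, had 15 of 17 genes higher with a median of 0.08, and glycolysis had 13 of 16 with a median of 0.06. With the length trend subtracted, the median was 0.11 for the 6 subunits and partners and 0.03 for both lists of assembly factors. It was then 0.02 for the tricarboxylic acid cycle and -0.003 for glycolysis. Of 13 transcriptional regulators of mitochondrial genes, 6 were higher (median -0.03), with Ppargc1a at -0.16 (SE 0.15), Nrf1 at 0.05 (SE 0.12) and Gabpa at -0.17 (SE 0.10). Pprc1, a coactivator related to Ppargc1a, had the smallest p of these 13, with 290.2 ± 39.9 and 236 ± 36.3 normalized counts (-0.30, SE 0.13, limma adjusted p = 0.600). In the depletion the medians were 0.04, -0.01, 0.02, -0.03, -0.05 and 0.00 for the same 6 lists. There Ppargc1a, a coactivator that drives mitochondrial genes, had 583 ± 80.4 normalized counts with IgG2b and 409.5 ± 72.9 with the antibody (-0.52, SE 0.14, limma adjusted p = 0.316), while Pprc1 differed by 0.01 (SE 0.14). Both were singled out after their values were seen. limma called 0 genes of these lists in either experiment.

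Lists of cell type markers are given by counts and sums. Oligodendrocyte markers were higher in 8 of 8 genes in the transfer (median 0.35) and in the depletion (0.41), and their summed level was 42787 to 75487 normalized counts in young T and 49572 to 89945 in aged T recipients. Choroid plexus markers were higher in 10 of 10 genes in both (0.40 and 0.44), with sums of 6871 to 51841 in young T and 5299 to 74005 in aged T recipients. In the transfer, pericyte and smooth muscle markers were lower in 10 of 10 genes (median -0.34), with sums of 2352 to 4523 in young T and 1942 to 3127 in aged T recipients. Microglial markers were higher in 6 of 8 genes (0.12), parvalbumin interneuron markers in 4 of 8 (-0.01) and erythrocyte markers in 3 of 3 (0.92). The erythrocyte sums overlapped widely, at 45.6 to 401 in young T and 35.5 to 605 in aged T recipients. Hippocampal neuron markers were present in all libraries, and 5 of 12 were higher in the transfer (median -0.04) and 11 of 12 in the depletion (0.29). In the depletion, oligodendrocyte markers summed to 46578 to 60035 with IgG2b and 49121 to 94378 with the antibody, and choroid plexus markers to 4154 to 38016 and 2430 to 45199. There microglial markers were higher in 8 of 8 genes (0.32), with sums of 4945 to 5699 and 5827 to 7246, parvalbumin interneuron markers in 1 of 8 (-0.30), pericyte and smooth muscle markers in 7 of 10 (0.18) and erythrocyte markers in 2 of 3 (1.17). The erythrocyte sums again overlapped, at 35.4 to 903 with IgG2b and 45.8 to 382 with the antibody. No CD8 T cell marker passed the minimum, and the 6 in the tables summed to 0 to 7.77 normalized counts in young T and 0 to 1.89 in aged T libraries, with Cd3d at 0 in all 11. In the depletion they summed to 0 to 8.59 with IgG2b and 1.03 to 14.5 with the antibody, with Gzmk at 0 in all 10. Cd8a itself stood at 1.95 ± 1.92 and 3.11 ± 1.90 (SD, n = 5 each), so these few reads show no lower level with the antibody. The part of these cell types in the members' differences was not tested.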

How the data were processed

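The hippocampal RNA of 21 samples was analysed in 2 tables of 24411 symbols. Per the submitters' processing notes, the tools were STAR, RSEM and DESeq2 (versions and roles not stated) and the build mm10. Which annotation and options were used is not given in the sources at hand. The deposited library columns hold a normalized signal, the read count over 1 size factor per library, per the file headers and the values. All values were whole multiples of 1 step per library (100%, relative tolerance 1e-06), which gave back the reads. The authors' deposited tables also hold log2 fold changes, signed control over treated, a test score, and p-values. Depth was 11232442 to 15055422 reads per library in the transfer and 9957822 to 14375029 in the depletion.

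limma-trend (limma 3.58.1, R 4.3.3) was run on log2(normalized count + 1) over genes with a mean of 10 or more, each table alone, with Benjamini-Hochberg adjustment over 14162 and 13939 genes; this scale understates changes of low genes. edgeR 4.0.16, DESeq2 1.42.0 and limma-voom on the recovered reads, other pseudocounts and minimums, TMM scaling, leaving out each library, and subtracting a lowess trend on transcript length (GENCODE M21, 98.54% of symbols matched; RefSeq-linked principal transcripts) were alternatives. Samples were grouped by the treatment in the labels, and replicate numbers follow the order of the records and pair no samples. Named genes were those with the smallest unadjusted p per complex (6, 4, 4, 6 and 6 in the transfer; 4, 2, 2, 3 and 3 in the depletion), members on the other side of 0, and a fixed set of isoforms; others are said to be named after their values were seen. The members and lists were chosen with earlier results of these data known. Simulated counts took the means and depths of the transfer, with each gene drawn independently and 1 fixed spread for all. On them the test recovered 49% of genes changed 1.5-fold and 94% of those changed 2-fold, and made 11 false calls over 14162 genes. For the depletion the shares were 51% and 99%, with 10 false calls over 13939 genes. Shifts that genes share within a library, and changes as small as the members' median, were not simulated. These rates therefore do not carry over to the members. No sequence of a protein was used here. One result is not reported here.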

Additional observations from a re-analysis of the deposited data

Results flagged for a closer look

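Single libraries stood apart from the rest of their group, by a rule on the gap to the nearest library that chance meets in about 1 in 20 groups. The flags cover the named genes and the medians by complex, not every member. Young T replicate 3 was far above the other 5 young T libraries for Ndufb6 (529 normalized counts), Uqcr10 (905), Cox6b1 (1773), Cox8a (4385), Cox4i1 (11742), Ndufa4 (2319), Atp5j2 (1485) and Atp5s (204). Young T replicate 4 was far under them for Sdhb (1404), and young T replicate 2 far above them for Cox4i2 (23.1). Aged T replicate 5 was highest for Ndufs3 (1783) and Cox6a2 (41.7).

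In the depletion experiment, CD8a antibody replicate 5 stood apart for Sdhb (2714 normalized counts), Sdhd (1430), Atp5g1 (2771), Atp5g3 (3886) and Ndufa4l2 (58.8), and for the complex V median (0.52 on the log2 scale). Of the IgG2b libraries, replicate 4 was lowest for Ndufb6 (306), Cox6b2 (9.22) and the complex II median (-0.12), replicate 2 highest for Cox6b1 (1798) and replicate 1 highest for Cox8b (31.1). The flagged genes share libraries, so the flags are not independent of each other. Members outside the named genes carry no flag but could stand apart as well. Atp5c1, for example, had 3945 normalized counts in antibody replicate 5, against 2412 to 2693 in the other antibody libraries.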

How the results depend on the processing

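No member was called under any alternative run in either experiment. Subtracting the length trend lowered the transfer median to 0.074. The count of members higher at an unadjusted p under 0.05 ran from 20 to 59 when 1 transfer library was left out, and from 0 to 5 in the depletion, where DESeq2 gave 3 and edgeR 2. The sign was not stable for genes near 0 or with few reads. Cox6a2 in the transfer was -0.11 in DESeq2 and -0.12 in edgeR. In the depletion, Atp5g3 was 0.00497 in DESeq2 and 0.014 in edgeR, and Cox8b was 0.33 in both and 0.10 with a pseudocount of 10. With 1 library left out, log2 differences in the transfer ran from -0.11 to 0.28 for Cox6a2, from -0.19 to 0.20 for Ndufa4l2, from -0.047 to 0.059 for Atp5s and from -0.046 to 0.64 for Cox7a1. In the depletion they ran from -0.16 to 0.028 for Atp5g3, from -0.50 to 0.60 for Cox8b, from -0.36 to 0.095 for Cox6a2, from -0.12 to 0.45 for Cox6b2, from -0.074 to 0.13 for Cox8a, from -0.067 to 0.14 for Sdhb, from -0.055 to 0.11 for Sdhd, from -0.13 to 0.13 for Atp5g1 and from -0.061 to 0.16 for Cox6b1. The cause was not tested. No paired analysis was possible because the labels carry no replicate numbers that groups share. Forms of under 50 normalized counts are limited by depth.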
